A study of Mus musculus with 6 samples.

Results

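A set of 27 genes was close to silent in mouse embryonic stem cells (ESCs) that had lost *Patz1*. They were chosen from 23420 gene symbols by the counts themselves. Levels were expressed as CPM, the count of a gene divided by the total of its library and multiplied by 1000000. A gene was kept when its lowest WT library held at least 0.5 CPM and its highest KO library held under 25% of the lowest WT library. Of the 13145 symbols at the WT minimum, 34 met this rule (0.259%), and 7 of them were set aside by name (*Ddx3y*, *Eif2s3y*, *Fkbp6*, *Nefm*, *Uba1y*, *Usp9y* and *Uty*). Since the KO to WT difference chose the 27 genes, their own levels are given as a description with no test.

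The cells were E14 ESCs, a male line, kept in LIF with inhibitors of MEK (PD0325901) and GSK3 (CHIR99021). RNA-seq after removal of ribosomal RNA gave 3 libraries of WT cells and 3 of a *Patz1* KO (-/-), which was made from WT E14TG2a cells with an sgRNA in the PX459 plasmid. The study calls the replicates biological, and p-values measure the spread between these libraries. It was not stated whether the KO libraries came from 1 clone or several. A difference between the genotypes and a difference between clones cannot be told apart.

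PATZ1 is a zinc finger protein with a POZ domain and AT hooks that binds GC-rich DNA. ESCs transcribe a number of genes at a low level that are better known from germ cells, from the early embryo or from differentiated tissues. Several of them belong to families of tandem copies, of which the *Xlr* and *Mage* families on X and the *Prame* family are examples.

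Together the 27 genes held 223, 163 and 128 CPM in the WT libraries, given here and below in the order of replicates 1, 2 and 3. The KO libraries held 18.5, 15.99 and 12.1 CPM. For a single gene, the KO mean was between 0% (*Dnajc5g*) and 13.8% (*Pramel7*) of the WT mean, with a median of 8.54%. All libraries of KO were below all libraries of WT for each of the 27 genes because the rule required it, and this held for 13.0% of the 15309 genes tested. With DESeq2, 27 of 27 had an adjusted p under 0.05 and were lower in KO, where 4.78% of tested genes were, and nothing is read from this count because the rule used the same contrast. In bulk samples, fewer cells with a transcript and less of the transcript per cell cannot be told apart.

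The set was mostly of low expression. The median of the WT means was 1.77 CPM against 19.4 CPM for all genes at the WT minimum. Of the 27 genes, 18 were under 5 CPM in WT and 7 were at 10 CPM or above. The WT libraries had total counts of 46301472, 37573923 and 11040756, and the KO libraries of 47721070, 46724594 and 11420268. A floor of 3 counts was 0.0648 CPM in the deepest WT library and 0.263 CPM in KO replicate 3. In KO replicate 3, 19 of the 27 genes were at or under this floor and 8 had no count, so that a level of 0 in that library allows up to 0.263 CPM. Floors and intervals cover counting error only. Replicate 3 of both genotypes was also rich in *Rn45s*, the ribosomal precursor, with 14.4% of counts in WT and 12.5% in KO. The rule can only admit more genes when a library is left out. Without these 2 libraries, 52 genes met it, without WT replicate 1 there were 48 and without WT replicate 3 there were 45.

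**Figure D1:**
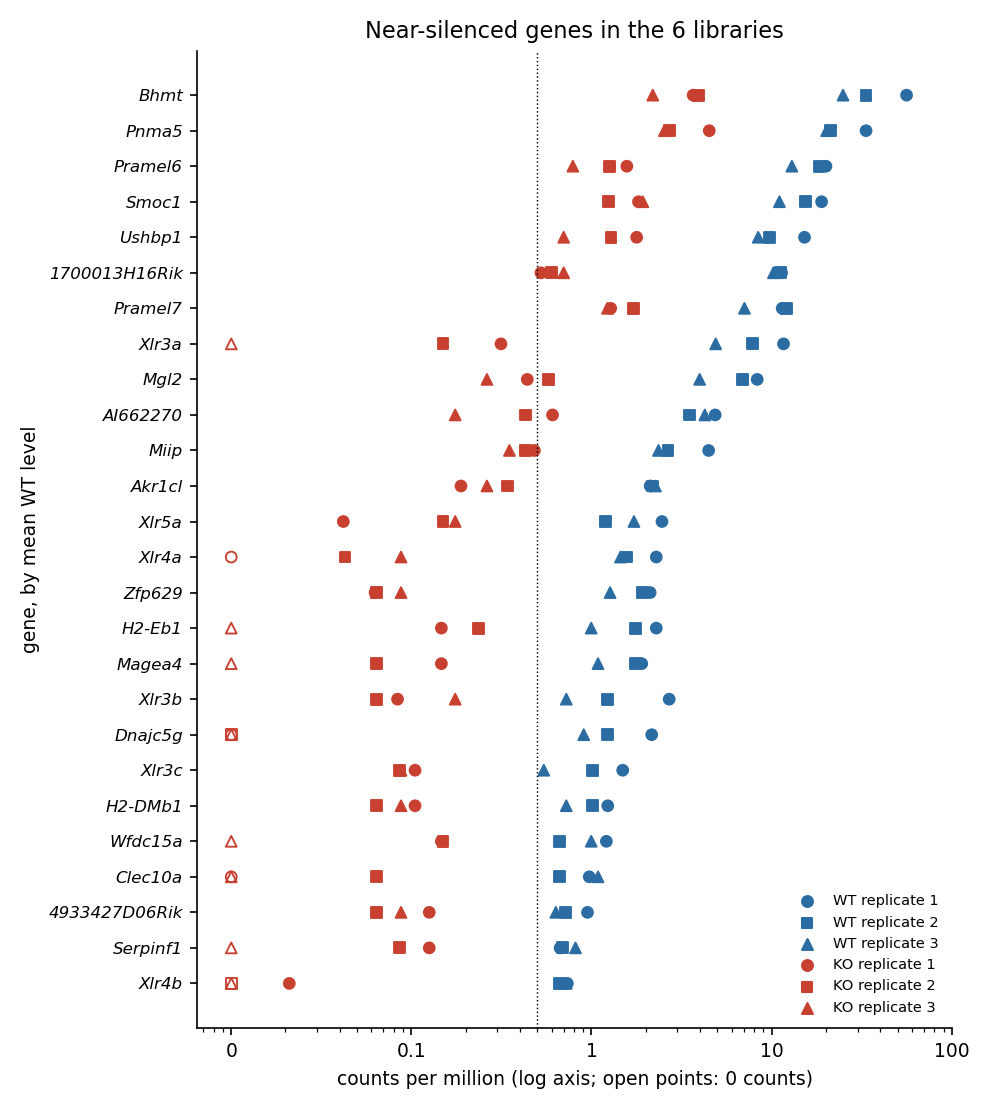
Level of 26 of the 27 genes in the 6 libraries, in CPM on a log axis, with WT in blue, KO in red, 1 marker shape per replicate number, and open points for 0 counts drawn at the left. The dotted line is the WT minimum of 0.5 CPM, and *Dnajc5g* is at 0 in all 3 KO libraries.

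*Patz1* itself held 69.4, 74.7 and 60.96 CPM in WT and 31.7, 31.1 and 28.5 CPM in KO. Its KO mean was 44.5% of WT (log2 fold change -1.14, SE 0.10, adjusted p 1.58e-26, DESeq2). The ESC markers *Pou5f1*, *Sox2*, *Nanog*, *Esrrb*, *Zfp42*, *Klf4*, *Tfcp2l1* and *Dppa5a* summed to between 4963 and 5986 CPM in WT and between 5636 and 6353 CPM in KO, with *Dppa5a* higher in KO (log2 fold change 0.38, adjusted p 0.00223, DESeq2).

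With the genotypes swapped in the rule, 3 symbols met it (*Ccm2l*, *Hist1h1t* and *Sv2a*), which was 0.0231% of the 12999 symbols at the KO minimum. The 3 genes just inside the 25% border were *H2-Eb1*, *Xlr3b* and *Pramel7*, whose highest KO library was at 23.6%, 24.2% and 24.2% of the lowest WT library. Just outside it were *Peg13* at 25.8%, *Aass* at 25.98% and *Wdr95* at 26.03%. *Peg13*, an imprinted non-coding RNA, had 2.12, 1.73 and 1.36 CPM in WT and 0.0838, 0.107 and 0.350 CPM in KO. *Aass*, an enzyme of lysine breakdown, had 13.4, 8.44 and 5.89 CPM in WT and 1.53, 1.01 and 1.31 CPM in KO. *Wdr95* had 5.05, 3.83 and 3.62 CPM in WT and 0.943, 0.835 and 0.876 CPM in KO. The shares changed gradually across the border. At the lower border, *Xlr3c*, *4933427D06Rik* and *Wfdc15a* had the smallest lowest WT levels at 0.543, 0.634 and 0.665 CPM, while *LOC666331*, *Gm11544* and *Tifab* missed the minimum at 0.479, 0.389 and 0.362 CPM.

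**Figure D2:**
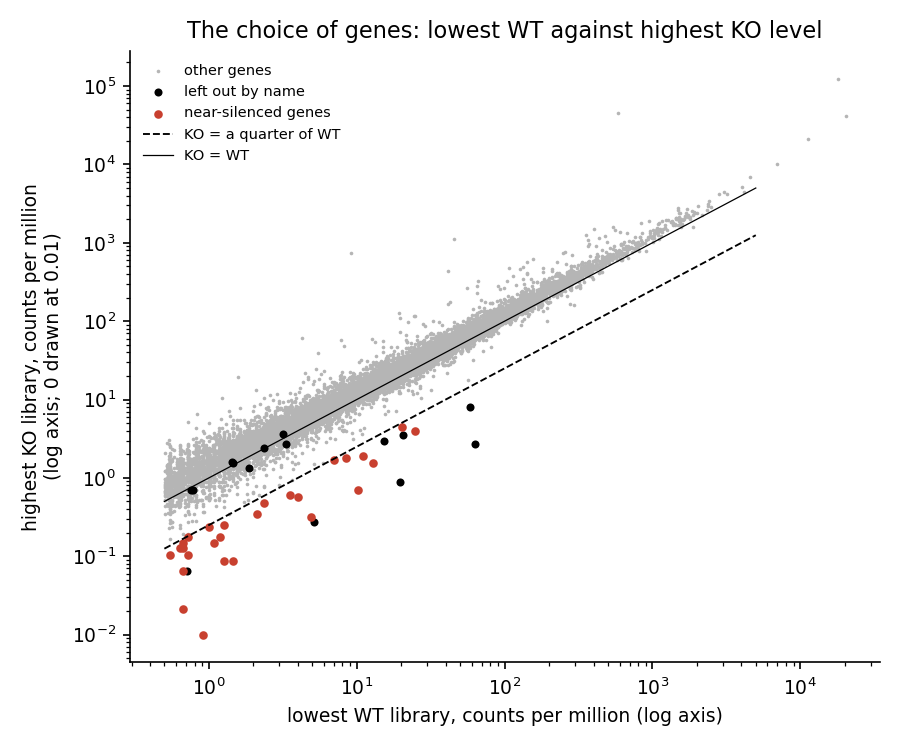
The lowest WT library against the highest KO library for the 13145 genes at the WT minimum, both in CPM on log axes, with the 27 near-silenced genes in red and genes named for omission in black. The dashed line is 25% of the WT level, and the 27 genes lie below it from 0.543 to 24.9 CPM in the lowest WT library.

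The 27 genes lay on 12 chromosomes, but not evenly. X held 9 of them (33.3%), where 3.61% of the genes at the WT minimum lie. Chromosome 11 held 4 (14.8% against 8.49%), and 14 were on other autosomes. Within 500 kb of each other, 13 of the genes formed 4 groups, and 14 stood alone. The groups were *Pnma5* with the 6 *Xlr* genes over 259 kb of X, *Mgl2* and *Clec10a* 18.6 kb apart on chromosome 11, *Pramel7* and *Pramel6* 9.5 kb apart on chromosome 2, and *H2-DMb1* and *H2-Eb1* 146 kb apart on chromosome 17. GENCODE M21 (GRCm38, the build called mm10) lists 25 of the 27 as protein coding and 2 as non-coding. The 259 kb on X rests on the long GENCODE span of *Xlr5a*. The next furthest end, that of *Xlr3c*, is 231 kb from the start of *Pnma5*.

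The DNA before the start of the genes is shown for 8 of them, because the *Xlr* copies resemble each other and because the windows span the range of CpG content in the set. Each line gives 250 bases before the RefSeq start (GRCm38.p6), read 5′ to 3′ on the strand of the gene, with every CpG in capitals.
Xlr3b, chrX:73191929-73192178, plus strand: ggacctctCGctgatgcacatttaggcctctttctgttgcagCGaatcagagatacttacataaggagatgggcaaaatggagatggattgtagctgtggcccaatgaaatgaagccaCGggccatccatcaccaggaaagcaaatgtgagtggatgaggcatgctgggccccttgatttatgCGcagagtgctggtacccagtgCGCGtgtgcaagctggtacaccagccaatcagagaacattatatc
Xlr3c, chrX:73265391-73265640, minus strand: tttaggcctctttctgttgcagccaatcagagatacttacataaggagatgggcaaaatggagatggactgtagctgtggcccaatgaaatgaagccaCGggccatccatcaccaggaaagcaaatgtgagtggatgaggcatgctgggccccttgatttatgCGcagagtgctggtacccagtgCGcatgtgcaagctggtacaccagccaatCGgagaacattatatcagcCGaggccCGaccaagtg
Xlr4a, chrX:73082508-73082757, minus strand: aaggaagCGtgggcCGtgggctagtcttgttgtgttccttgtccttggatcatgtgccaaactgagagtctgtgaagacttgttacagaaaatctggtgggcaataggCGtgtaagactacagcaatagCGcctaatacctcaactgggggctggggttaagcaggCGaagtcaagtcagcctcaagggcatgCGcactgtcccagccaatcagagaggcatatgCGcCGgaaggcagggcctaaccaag
Xlr4b, chrX:73214083-73214332, plus strand: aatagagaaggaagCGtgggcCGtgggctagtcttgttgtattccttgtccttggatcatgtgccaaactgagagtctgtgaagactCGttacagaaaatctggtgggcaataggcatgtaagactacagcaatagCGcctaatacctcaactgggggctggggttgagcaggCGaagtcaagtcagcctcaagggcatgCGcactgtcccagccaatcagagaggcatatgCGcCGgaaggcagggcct
Xlr5a, chrX:73117703-73117952, minus strand: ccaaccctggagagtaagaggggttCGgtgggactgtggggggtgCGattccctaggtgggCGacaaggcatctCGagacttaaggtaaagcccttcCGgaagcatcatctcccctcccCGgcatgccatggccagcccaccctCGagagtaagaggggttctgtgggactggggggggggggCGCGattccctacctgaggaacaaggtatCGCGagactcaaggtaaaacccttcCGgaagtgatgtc
1700013H16Rik, chrX:53757832-53758081, minus strand: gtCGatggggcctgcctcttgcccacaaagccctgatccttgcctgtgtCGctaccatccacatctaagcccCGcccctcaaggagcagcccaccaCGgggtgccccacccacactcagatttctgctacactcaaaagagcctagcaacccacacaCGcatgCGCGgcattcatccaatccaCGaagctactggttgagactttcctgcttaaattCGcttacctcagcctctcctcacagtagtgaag
Pnma5, chrX:73037104-73037353, minus strand: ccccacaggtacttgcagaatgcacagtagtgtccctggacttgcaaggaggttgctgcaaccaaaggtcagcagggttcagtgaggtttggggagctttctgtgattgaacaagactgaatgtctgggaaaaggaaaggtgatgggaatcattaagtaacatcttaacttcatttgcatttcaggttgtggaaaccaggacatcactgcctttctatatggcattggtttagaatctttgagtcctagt
Pramel6, chr2:87506315-87506564, plus strand: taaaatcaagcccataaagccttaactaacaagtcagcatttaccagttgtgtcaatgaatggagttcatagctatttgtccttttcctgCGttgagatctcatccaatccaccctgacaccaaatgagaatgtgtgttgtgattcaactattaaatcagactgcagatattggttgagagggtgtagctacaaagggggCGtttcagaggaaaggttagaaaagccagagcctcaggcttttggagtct
*Xlr3b* and *Xlr3c* aligned over 230 columns with 226 identical bases, and *Xlr4a* and *Xlr4b* over 243 columns with 239. The CpG number in these 250 bases was 6 in both *Xlr3* copies and 8 in both *Xlr4* copies, against 12 in *Xlr5a*, 9 in *1700013H16Rik*, 2 in *Pramel6* and 0 in *Pnma5*.

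A RefSeq window of 250 bases before to 50 bases after the start was found for 23 of the 27 genes. The median number of CpG dinucleotides was 7 over the 23 windows, 14 over 17398 genes of the files and 21 over 10200 genes at the WT minimum. The range over the 23 was 0 to 16, and 9 of them (39.1%) had at most 5, where 31.5% of all genes of the files and 9.32% of the genes at the WT minimum did. The near-silenced genes were thus closer to all genes of the files than to those at the WT minimum, whose WT level was higher at the median. With 1 gene per family and group the median was 8. On X and off X the medians were 7 and 7.5.

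The letters GGGNGGGG, a G-rich run like those that PATZ1 and the related MAZ bind, were searched for on both strands of the same windows. They were found in 5 of 23 windows (21.7%), in 39.6% of all windows and in 50.1% of those of genes at the WT minimum. The median GC content of these windows was 50.7%, 56.7% and 61.0% in the same order. The part of base composition in the shares was not tested. The 5 were *1700013H16Rik* with 2 matches, *Xlr5a* with 6, and *Mgl2*, *Pramel7* and *Ushbp1* with 1 each. CACGTG was in 0 of 23 (8.16% of all windows and 10.5% at the WT minimum), and TATAAA was in 0 of 23 (12.8% and 6.85%). These 3 runs of letters do not overlap one another. The match is of letters alone, and binding in these cells was not tested here.

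**Figure D3:**
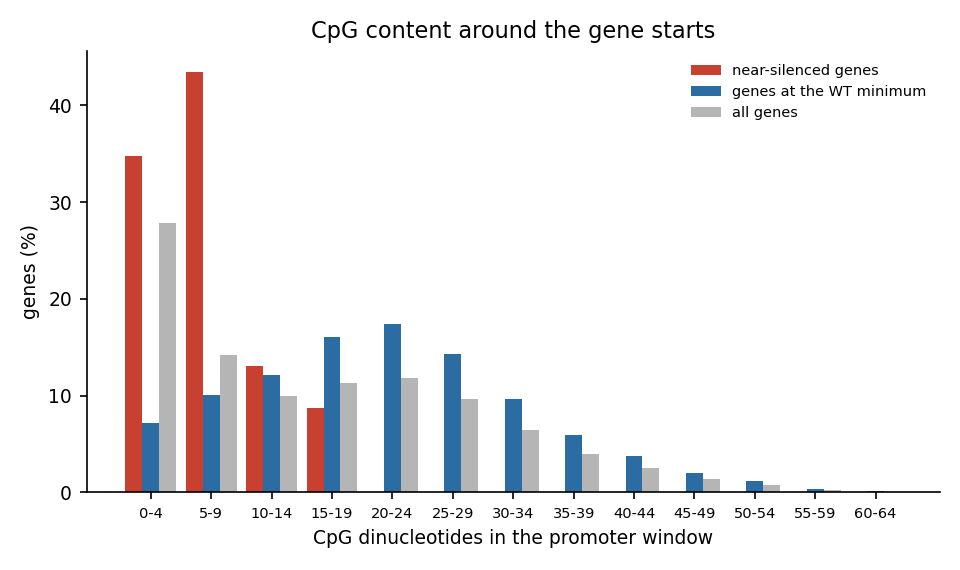
Percentage of genes by the number of CpG dinucleotides in the window around the start, for the 23 near-silenced genes with a window (red), genes at the WT minimum (blue) and all genes of the files (grey). The near-silenced genes end in the 15 to 19 bin, and 17.4% of the genes at the WT minimum are in the 20 to 24 bin.

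The largest family was *Xlr* (X-linked lymphocyte regulated), whose proteins are related to the synaptonemal complex protein SYCP3. *Xlr3a* (X, 73086293 to 73097095, minus strand) was the highest of them, with 11.6, 7.82 and 4.89 CPM in WT and 0.314, 0.150 and 0 CPM in KO. *Xlr3b* (X, 73192207 to 73202930, plus strand) had 2.70, 1.22 and 0.725 CPM in WT and 0.0838, 0.0642 and 0.175 CPM in KO. *Xlr3c* (X, 73254540 to 73265390, minus strand) had 1.49, 1.01 and 0.543 CPM in WT and 0.105, 0.0856 and 0.0876 CPM in KO. For all 3 copies WT replicate 1 was highest and WT replicate 3 lowest, and the KO levels stood for at most 15 counts in a library.

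*Xlr4a* (X, 73074345 to 73082478, minus strand) had 2.29, 1.57 and 1.45 CPM in WT and 0, 0.0428 and 0.0876 CPM in KO. With 181 counts over the WT libraries and 3 over the KO libraries, the ratio of WT to KO was 67.3 (exact 95% interval 22.7 to 329). *Xlr4b* (X, 73214333 to 73222453, plus strand) had 0.734, 0.665 and 0.725 CPM in WT and a single count in KO, in replicate 1, for a ratio of 74.7 (12.96 to 2995). *Xlr5a* (X, 73107635 to 73292976, minus strand) had 2.46, 1.20 and 1.72 CPM in WT and 0.0419, 0.150 and 0.175 CPM in KO. The annotated span of *Xlr5a* reaches over *Xlr3b*, *Xlr3c* and *Xlr4b*. This span is from GENCODE. The RefSeq start lies just before 73117703, beside the upstream window shown above, so the annotations disagree on where *Xlr5a* starts.

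The 6 *Xlr* values are uncertain one by one, because the copies share sequence. Of all stretches of 50 bases in the annotated exons, between 44.8% (*Xlr3a*) and 84.2% (*Xlr5a*) also occur in another gene, mostly another *Xlr* copy or pseudogene. How reads with several positions were counted was not given in the sources used here. Apart from *Xlr*, the highest shares were in *Bhmt* (26.1%, including pseudogenes and *Bhmt2*), *Pnma5* (25.9%, with *Pnma3*) and *H2-DMb1* (22.7%, with *H2-DMb2*), and 9 of the 27 genes shared none.

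*Pnma5* (X, 73033981 to 73037103, minus strand) is a paraneoplastic Ma antigen gene, of a family that descends from the gag gene of a retroelement. It had 33.4, 21.2 and 20.2 CPM in WT and 4.51, 2.72 and 2.54 CPM in KO, or 24.9 ± 7.38 and 3.25 ± 1.09 (SD, n = 3 each). The 5 *Xlr* relatives outside the set include 3 with at most 3 counts in every library. The other 2, *Xlr4c* and *Xlr5b*, missed the WT minimum, *Xlr5b* in WT replicate 3 and *Xlr4c* in WT replicates 2 and 3. *Xlr4c* had 1.02, 0.426 and 0.181 CPM in WT and no count in KO, at least 24.2-fold lower against a floor of 3 counts over the group (adjusted p 0.000319, DESeq2). *Xlr5b* had 0.799, 0.932 and 0.181 CPM in WT and 0.0419, 0.0428 and 0 CPM in KO (log2 fold change -4.16, SE 1.02, adjusted p 0.00143). *Xlr4c* and *Xlr5b* share exon sequence with near-silenced *Xlr* copies, so their counts may hold reads of these. Both fell in KO by this test, but both have too few counts for edgeR or a filter of 10 counts in 3 libraries, *Xlr4c* missed the threshold without WT replicate 1 (adjusted p 0.0622) and had no adjusted p with the replicate block, and *Xlr5b* missed it without WT replicate 2 (0.0743).

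Genes of other families in the same stretch of X did not pass the test. *Zfp185*, 2.44 kb before *Pnma5*, held 11.5 CPM in WT and 12.4 CPM in KO (log2 fold change 0.12, adjusted p 0.788, DESeq2). *F8a*, which lies between *Xlr4b* and *Xlr4c*, held 2.18 CPM in WT and 1.65 CPM in KO (log2 fold change -0.37, adjusted p 0.648). On X before *Ogt*, where this stretch lies, 6.4% of 328 tested genes were lower in KO and 3.66% higher. On X as a whole 4.23% were lower and 19.4% higher. The 21 lower genes before *Ogt* include the 9 near-silenced genes on X, which the rule chose as lower. *Pnma3*, *Xlr4c* and *Xlr5b* are also among them, so this share is not separate from the set.

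**Figure D4:**
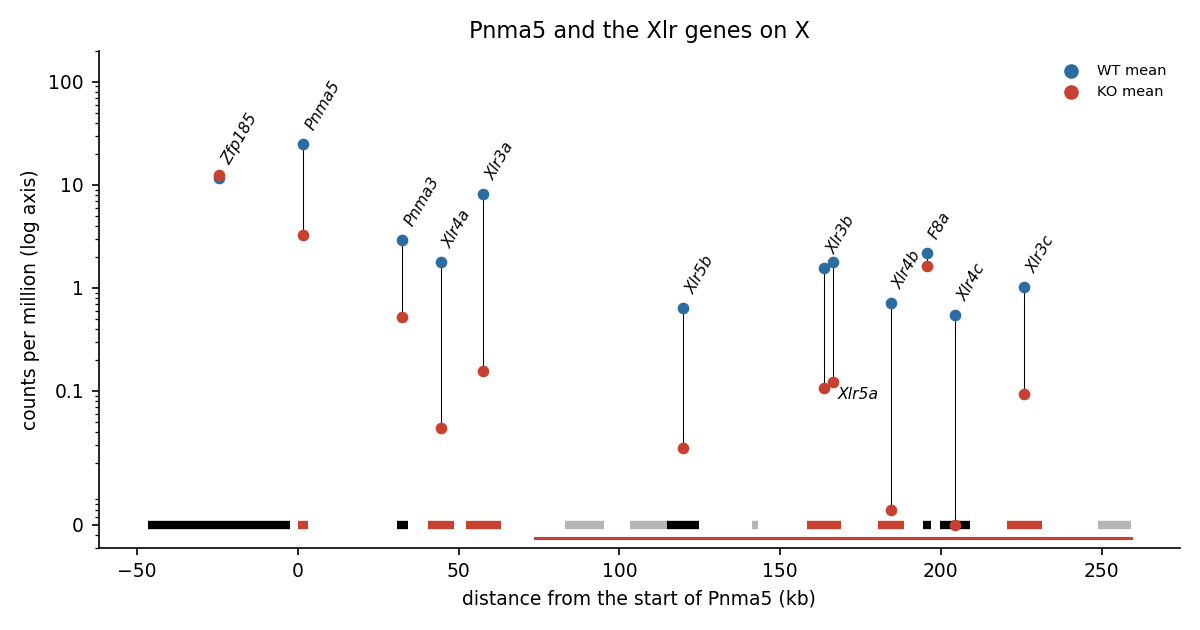
Mean WT (blue) and KO (red) level in CPM, on a log axis with 0 drawn at the base, of *Pnma5*, the *Xlr* genes and the genes between them, by distance from the start of *Pnma5* in kb, leaving out genes with at most 3 counts. Bars below show the genes to scale, red for the near-silenced, black for others, grey for those with at most 3 counts, and a thin red line for the long *Xlr5a*. *Zfp185* and *F8a* have WT and KO points close together.

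The other 2 genes on X stood apart from this stretch. *1700013H16Rik* (X, 53742901 to 53757831, minus strand) is listed as protein coding and has no assigned role here. It varied little between WT libraries, with 11.4, 11.2 and 10.2 CPM, and had 0.524, 0.599 and 0.701 CPM in KO, or 5.56% of the WT mean. *Magea4* (X, 72222017 to 72222964, plus strand), a melanoma antigen gene usually read in germ cells and tumours, lay 811 kb before *Pnma5* and held 1.58 ± 0.43 CPM in WT and 0.0703 ± 0.0735 CPM in KO (SD, n = 3 each).

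The 21 *Mage* relatives outside the set moved in both directions. Of 11 with an adjusted p, 2 were lower and 3 higher in KO, where 4.78% and 2.7% of all tested genes were. All of these called genes lie on X, where 4.23% of tested genes were lower and 19.4% higher. *Magea8* had 0.648, 0.266 and 0.543 CPM in WT and no count in KO, at least 17.1-fold lower (adjusted p 0.000458, DESeq2), with no adjusted p from the replicate block or without WT replicate 3. *Magea5* had 0.756, 0.559 and 0.453 CPM in WT and 0.168, 0.0214 and 0 CPM in KO (log2 fold change -2.93, adjusted p 0.0176), and missed the threshold upon leaving out WT replicate 1 (0.249), WT replicate 2 (0.125) or KO replicate 2 (0.223). The 3 that rose were of the well expressed kind. *Mageb16* rose from 40.8 ± 4.25 to 61.5 ± 4.27 CPM (SD, n = 3 each, log2 fold change 0.62, adjusted p 1.07e-06), *Mageh1* from 17.3 to 27.1 CPM (0.68, adjusted p 0.000233) and *Maged2* from 31.6 to 43.1 CPM (0.48, adjusted p 0.00112, and 0.0584 without KO replicate 1).

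*Pramel6* (chromosome 2, 87506565 to 87510872, plus strand) and *Pramel7* (chromosome 2, 87489087 to 87497093, minus strand) are leucine-rich repeat genes of the *Prame* family, which are known from naive ESCs and the inner cell mass. *Pramel7* is known for acting against the DNA methylation cofactor UHRF1. *Pramel6* had 20.02, 18.3 and 12.95 CPM in WT and 1.57, 1.26 and 0.788 CPM in KO. *Pramel7* had 11.4, 12.1 and 7.06 CPM in WT and 1.28, 1.71 and 1.23 CPM in KO. Both stood on opposite strands with their starts facing the same gap, and *Pramel7* kept the largest share of its WT level of all 27 genes. Of 4 *Prame* relatives with an adjusted p, *Pramef17* was lower (0.779 ± 0.466 to 0.0985 ± 0.0946 CPM, log2 fold change -2.73, adjusted p 0.00817) and *Pramef8* higher (28.9 ± 3.40 to 47.6 ± 5.73 CPM, log2 fold change 0.75, adjusted p 4.27e-07, DESeq2, n = 3 each). *Pramef17* passed no longer when WT replicate 1 (0.282), WT replicate 2 (0.125) or KO replicate 2 (0.116) was left out.

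*Bhmt* (chromosome 13, 93616675 to 93637961, minus strand) had the highest WT level of the set. It encodes betaine-homocysteine methyltransferase, which uses betaine to turn homocysteine into methionine and is best known from liver. It had 56.1, 33.4 and 24.9 CPM in WT and 3.67, 3.92 and 2.19 CPM in KO. The genes next to it fell too. *Bhmt2*, a related methyltransferase 17.8 kb away, had 17.97, 13.7 and 10.9 CPM in WT and 2.72, 3.60 and 3.15 CPM in KO (log2 fold change -2.15, SE 0.21, adjusted p 7.11e-23, DESeq2). *Dmgdh*, 36.5 kb away, encodes the enzyme that oxidises dimethylglycine, the product left from betaine. It had 36.7, 24.2 and 18.3 CPM in WT and 7.17, 6.48 and 5.17 CPM in KO (-2.03, SE 0.20, adjusted p 1.53e-21). For both, all KO libraries were below all WT libraries, and the call held in all 12 alternatives. *Jmy*, 117 kb away on the other side, had a log2 fold change of -0.04 (adjusted p 0.942). Of the list of 8 further genes of betaine and choline oxidation, 5 had an adjusted p and these 2 neighbours were the ones under the threshold, where 4.78% of all tested genes were lower.

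A further group is better known from antigen-presenting cells. *Mgl2* (chromosome 11, 70130329 to 70137550, plus strand) and *Clec10a* (chromosome 11, 70156197 to 70170834, plus strand) encode galactose-binding C-type lectins of macrophages and dendritic cells. *Mgl2* had 8.32, 6.92 and 3.99 CPM in WT and 0.440, 0.578 and 0.263 CPM in KO. *Clec10a* had 0.972, 0.665 and 1.09 CPM in WT and 0, 0.0642 and 0 CPM in KO, with 82 counts against 3 and a ratio of 30.5 (exact 95% interval 10.1 to 151). *H2-Eb1* (chromosome 17, 34305867 to 34316674, plus strand), a beta chain of MHC class II, had 2.29, 1.76 and 0.996 CPM in WT and 0.147, 0.235 and 0 CPM in KO. *H2-DMb1* (chromosome 17, 34153072 to 34160230, plus strand), part of the complex that loads peptides on MHC class II, had 1.23, 1.01 and 0.725 CPM in WT and 0.105, 0.0642 and 0.0876 CPM in KO.

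Of 9 other MHC class II genes, 4 had an adjusted p and 0 were under the threshold with DESeq2, with 1 at an unadjusted p under 0.05, and edgeR called 1, where it called 4.15% of all tested genes lower and 2.26% higher. This was *Ciita*, the transactivator of MHC class II genes, with 0.607 ± 0.152 CPM in WT and 0.157 ± 0.0437 CPM in KO (n = 3 each). Its log2 fold change was -2.01, with an adjusted p of 0.0521 with DESeq2 and 0.0206 with edgeR. Only edgeR called *Ciita*. The DESeq2 adjusted p was 0.378 without WT replicate 1 and 0.247 without WT replicate 2. It was 0.191 without KO replicate 1 and 0.375 without KO replicate 2. *H2-Ab1* had 0.321 CPM in WT and 0.516 CPM in KO (adjusted p 0.758), and *H2-Aa*, the alpha chain next to *H2-Eb1*, was at 0.0521 and 0.0071 CPM with no adjusted p. Of 32 other C-type lectins, 7 had an adjusted p, with 0 lower and 0 higher by DESeq2 (4.78% and 2.7% of all tested genes) and by edgeR. At an unadjusted p under 0.05, 1 was lower and 0 higher by either tool.

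Macrophage and dendritic cell markers were low in both genotypes. The leukocyte gene *Ptprc*, *Lyz2* and *Adgre1* (listed as *Emr1*) had 0 counts in all 6 libraries. The 8 markers summed to between 6.43 and 12.1 CPM in WT and between 4.64 and 6.92 CPM in KO, most of it from *Cd68* and *Cd74*, and 0 of the 3 with an adjusted p passed (DESeq2, 1 at an unadjusted p under 0.05, 0 by edgeR). The 6 fibroblast feeder markers summed to between 3.17 and 4.15 CPM in WT and between 4.92 and 5.52 CPM in KO, with *Thy1* higher in KO. The 4 germ cell markers summed to between 51.4 and 61.1 CPM in WT and between 49.7 and 54.2 CPM in KO, and of these *Dazl* was lower in KO (log2 fold change -0.67, adjusted p 8.86e-06).

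Secreted proteins and inhibitors made up a scattered group. *Smoc1* (chromosome 12, 81026808 to 81186414, plus strand), a matricellular protein that modulates BMP signalling, had 18.9, 15.5 and 11.1 CPM in WT and 1.82, 1.24 and 1.93 CPM in KO. *Serpinf1*, which encodes pigment epithelium-derived factor, held 0.726 ± 0.0784 CPM in WT and 0.0704 ± 0.0642 CPM in KO (SD, n = 3 each). *Wfdc15a*, of the WAP four-disulfide core family, held 0.957 ± 0.274 and 0.0988 ± 0.0856 CPM. Of 16 relatives of *Wfdc15a*, 11 had at most 3 counts in every library, and *Wfdc2* rose from 6.06 ± 0.87 to 14.05 ± 2.22 CPM (log2 fold change 1.23, adjusted p 4.26e-09, DESeq2, n = 3 each).

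Intracellular proteins of varied roles formed the remainder. *Ushbp1* (chromosome 8, 71384272 to 71395802, minus strand), whose product binds the Usher syndrome protein harmonin, had 15.2, 9.77 and 8.42 CPM in WT and 1.78, 1.28 and 0.701 CPM in KO. *Dnajc5g*, a testis co-chaperone of the cysteine string protein family, had 156 counts over the WT libraries and 0 over the KO libraries, at least 58.0-fold lower against a floor of 3 counts over the group. *Zfp629*, a C2H2 zinc finger gene, held 1.77 ± 0.44 CPM in WT and 0.0715 ± 0.0139 CPM in KO (SD, n = 3 each), with at most 3 counts in each KO library. *Miip*, an inhibitor of cell migration and invasion, held 3.16 ± 1.14 and 0.420 ± 0.0662 CPM, and *Akr1cl*, an aldo-keto reductase gene, 2.19 ± 0.0740 and 0.265 ± 0.0769 CPM.

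Of the 2 non-coding genes, *AI662270* (chromosome 11, 83223576 to 83226604, plus strand) had 4.86, 3.51 and 4.26 CPM in WT and 0.608, 0.428 and 0.175 CPM in KO. It lies among the Schlafen genes. *Slfn4*, 33.4 kb away, had 0.475, 0.506 and 0.272 CPM in WT and 0, 0 and 0.0876 CPM in KO (log2 fold change -5.07, SE 1.38, adjusted p 0.00599, DESeq2), a call that was lost in 6 of 12 alternatives. *Slfn3*, 8.42 kb away, had a log2 fold change of -2.29 (adjusted p 0.0622). The other, *4933427D06Rik* on chromosome 6, was near the detection floor in KO, with 0.768 ± 0.164 CPM in WT and 0.0925 ± 0.0311 CPM in KO (SD, n = 3 each).

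To ask whether the genes around them changed as well, the nearest symbol on each side of every near-silenced gene was taken. These were 43 genes, of which 12 had at most 3 counts in every library and 26 had an adjusted p. Of the 26, 5 (19.2%) were lower in KO, where 4.78% of all tested genes were, and 0 were higher (DESeq2, 1 at an unadjusted p under 0.05, 0 by edgeR). The 5 were *Bhmt2*, *Pnma3*, *Xlr4c*, *Cryge* and *Smyd4*. *Pnma3* belongs to the family of *Pnma5* and lies between it and *Xlr4a*. It had 3.65, 3.06 and 1.99 CPM in WT and 0.650, 0.642 and 0.263 CPM in KO (log2 fold change -2.35, SE 0.37, adjusted p 3.11e-08). The *Pnma3* count may hold reads of *Pnma5*, since they share exon sequence. The same holds for *Xlr4c* with the near-silenced *Xlr* copies and for *Bhmt2* with *Bhmt*.

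*Cryge*, a gamma crystallin gene of the lens 15.8 kb from *Akr1cl*, had 3.09, 3.14 and 1.63 CPM in WT and 1.32, 1.56 and 0.788 CPM in KO (log2 fold change -1.04, SE 0.33, adjusted p 0.0298, DESeq2). *Smyd4*, 4.06 kb from *Serpinf1* on chromosome 11, had 33.0, 30.7 and 26.4 CPM in WT and 23.7, 24.0 and 20.4 CPM in KO (-0.37, SE 0.11, adjusted p 0.0208). On chromosome 11, 20.2% of tested genes were lower in KO, and the part of this in the value for *Smyd4* was not tested. Off chromosome 11, 4 of 22 tested neighbours were lower, where 3.4% of all tested genes there were. The count of 5 fell to 3 of 24 with edgeR, where 4.15% of all genes tested in that fit were lower. It was 2 of 27 without WT replicate 1 (2.36% of all genes tested) and 3 of 26 without KO replicate 1 (2.24%). Without KO replicate 2 or 3 it was 3 of 28 each (2.34% and 4.17%). *Bhmt2* and *Pnma3* passed in all 12 alternatives, *Cryge* in 6 and *Smyd4* in 7.

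Within 100 kb of a near-silenced gene there were 143 other symbols. Of 95 with an adjusted p, 13 (13.7%) were lower and 0 higher (DESeq2, 2 at an unadjusted p under 0.05, 0 by edgeR), where 4.78% and 2.7% of all tested genes were. Off chromosome 11, 8 of 73 were lower, where 3.4% of all tested genes off chromosome 11 were. With the replicate block, 15 of 89 were lower and 2 higher (*4930502E18Rik* and *Bcl6b*, adjusted p 0.0326 and 0.0497), where 7.95% and 6.68% of all genes tested in that fit were. The same 2 were higher when WT replicate 3 was left out (0.039 and 0.0452), where 3.33% of all genes tested were. The count of 13 fell to 8 with edgeR (4.15% of all genes in that fit), to 6 without WT replicate 1 (2.36%), and to 7 when replicate 2 of WT (2.54%), replicate 1 of KO (2.24%) or replicate 2 of KO (2.34%) was left out. One of them was *Crygd*, another gamma crystallin gene 29.1 kb from *Akr1cl*. It had 4.32, 4.44 and 1.81 CPM in WT and 0.524, 0.621 and 0.175 CPM in KO (log2 fold change -2.84, SE 0.40, adjusted p 2.41e-10), and passed in all 12 alternatives. *D630023F18Rik*, 72.5 kb from *Akr1cl*, went from 10.03 ± 1.40 to 7.15 ± 0.33 CPM (adjusted p 0.0419, n = 3 each). *Rnasek*, *Wdr81* and *Prpf8* on chromosome 11 were the others, with log2 fold changes of -0.66, -0.70 and -0.31 (adjusted p 8.03e-06, 0.0151 and 0.0245, DESeq2). These 3 and *D630023F18Rik* each passed in some alternatives only, except *Rnasek*, which passed in all 12.

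**Figure D5:**
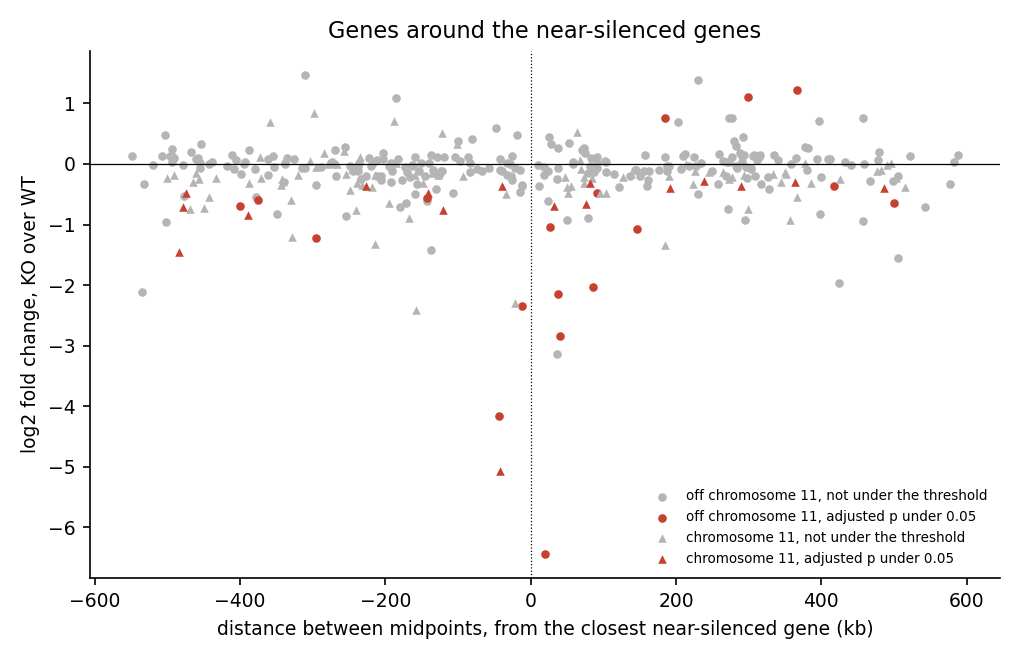
Log2 fold change (KO over WT) of 376 tested genes within 500 kb of a near-silenced gene, against the distance between gene midpoints in kb from the closest near-silenced gene, with genes under an adjusted p of 0.05 in red and genes of chromosome 11 as triangles. Of the 376 genes, 32 were lower and 3 higher, where 4.78% and 2.7% of all tested genes were. Off chromosome 11, 15 of 269 were lower, where 3.4% of all tested genes there were. On any chromosome, the 11 below -1 in red include *Xlr4c*, *Slfn4*, *Xlr5b*, *Crygd*, *Pnma3*, *Bhmt2* and *Dmgdh* near the centre.

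The relatives of the near-silenced genes, in 12 families, were 117 symbols, of which 51 had at most 3 counts in every library. Among 41 with an adjusted p, 8 were lower (19.5%, where 4.78% of all tested genes were) and 5 higher (2.7% of all tested genes), and the median log2 fold change of these 41 was 0.00 against 0.01 for all genes tested. The 8 were *Xlr4c*, *Xlr5b*, *Magea5*, *Magea8*, *Pnma3*, *Bhmt2*, *Dmgdh* and *Pramef17*, of which 5 were under 1 CPM in WT. *Bhmt2*, *Pnma3* and *Xlr4c* were also among the 5 lower nearest neighbours, so these counts overlap. *Xlr4c*, *Xlr5b*, *Pnma3*, *Bhmt2*, *Magea5* and *Magea8* share exon sequence with near-silenced genes, and their counts may hold reads of these. For *Magea4* the shared part was 2.34%. The count of 8 fell to 3 of 32 with the filter of 10 counts in 3 libraries, where 5.02% of all genes tested were lower. It was 5 of 47 without WT replicate 1 (2.36% of all genes tested) and 5 of 42 without WT replicate 2 (2.54%). The 5 higher were *Mageb16*, *Maged2*, *Mageh1*, *Pramef8* and *Wfdc2*. The *Mage* genes among them lie on X, where 19.4% of tested genes were higher. The families and the 27 genes were named with these data known, so the counts are a description of the families.

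The levels of the WT libraries, of which the rule used the lowest, are given as a description, and the 6 *Xlr* copies among the 27 share exon sequence. After scaling with median-of-ratios size factors, 19 of 27 were highest in WT replicate 1, where 36.3% of the genes at the WT minimum were. The highest WT library was 1.53 times the lowest at the median gene, against 1.22 for all genes at the WT minimum and 1.352 for 3671 genes of like WT level (1.22 to 9.16 CPM). The genes of the 2-cell-like state, a rare state in ESC cultures marked by *Zscan4* genes, had another pattern. Of 18 such genes, 17 were highest in WT replicate 2 and all 18 lowest in WT replicate 1. Their sums were 38.8, 234 and 141 CPM in WT and 10.3, 30.2 and 21.98 CPM in KO. By DESeq2, 14 of 18 were lower in KO (4.78% of all tested genes), and 10 by edgeR (4.15%). The rule takes the lowest WT library and so kept out genes low in WT replicate 1. The contrast with the 27 was therefore partly fixed by the choice, and nothing is read from it. Without WT replicate 1, *Gm20767*, *Gm8300*, *Gm5662*, *Gm5039*, *BC147527* and *AF067061* of these 18 met the rule. Symbols of the *Zscan4*, *Tcstv* and *Usp17l* families were left out by name. Reads shared among copies in the list were not measured.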

How the data were processed

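RNA-seq of 3 WT and 3 *Patz1* KO libraries was analysed from 1 table per library. The deposited values were raw read counts per gene symbol, which the authors had not normalized. Reads were mapped to mm10 with Bowtie 2 per the methods of the study. The submitters' processing notes name TopHat2 2.1.1, Bowtie2 2.3.1.0, featureCounts 1.6.2 and DESeq2, with no roles. The use of strand in counting was not given in the sources used here, so overlapping genes are uncertain.

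CPM was computed from the file totals, and the 27 genes, the families, the motifs and the neighbour windows were chosen with earlier results of these data known. Differential expression used the two-sided Wald test of DESeq2 (version 1.42.0) with Benjamini-Hochberg adjustment over 15309 genes, a threshold of 0.05, median-of-ratios size factors and no shrinkage. Values are mean ± SD (n = 3). Alternatives were edgeR (version 4.0.16), TMM size factors, a filter of 10 counts in 3 libraries, no independent filtering, a replicate block, each library left out, and, after the data were seen, replicate 3 of both genotypes left out. The code was tested on simulated data.

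Of the 27, values are given in every library for the 10 highest in WT and those with a family or neighbour within 500 kb in the set, and also for the 3 genes outside the 25% border and for *Patz1*, called neighbours and relatives, and genes left out by name or meeting the swapped rule, as far as shown. The values of 1 of the 27 are not reported here. Called neighbours and relatives are named, and those within 100 kb beside them. *Jmy*, *Zfp185*, *F8a*, *Ciita*, *H2-Ab1*, *H2-Aa* and *Slfn3* were chosen after their values were seen. Positions are from GENCODE M21 and upstream sequences from RefSeq (GRCm38.p6). Replicate numbers are shared by the genotypes in the titles. After subtraction of the genotype mean, libraries of equal number correlated over 11524 genes (0.469, 0.619 and 0.684), and the numbers were taken to pair the libraries. The main DESeq2 fit held genotype alone and left this pairing out. It entered only in the replicate block.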

Additional observations from a re-analysis of the deposited data

How the results depend on the processing

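*Patz1* kept its call in all 12 alternatives, with log2 fold changes from -1.16 to -1.10. Of the 27 near-silenced genes, 21 passed the filter of 10 counts in 3 libraries, and *4933427D06Rik* and *Serpinf1* missed the threshold without KO replicate 2. Nothing is read from their calls, which rest on the values that chose them. The number of genes that met the rule was 17 with a WT minimum of 1 CPM and 44 with KO under the lowest WT library divided by 3 in place of 4. It was between 31 and 48 with 1 library left out and 52 without replicate 3 of both genotypes, as the rule can only admit more genes with fewer libraries. Median-of-ratios scaling gave 29 genes without *Xlr3c*, and a divisor of 5 gave 20, all of them among the 27. The replicate block gave 1158 genes lower and 973 higher, against 732 and 414. With 1 library left out, there were between 340 and 833 lower and between 226 and 508 higher. The counts were lowest without KO replicate 1 for lower genes (340) and without KO replicate 2 for higher genes (226).

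Of the nearest neighbours, 3 were lower with edgeR and between 2 and 5 with 1 library left out, and 13 genes were lower when all within 100 kb were taken. Between 0 and 1 were higher with 1 library left out and 1 with the replicate block (*4930502E18Rik*, beside *1700013H16Rik*, adjusted p 0.0326). Of all genes tested, 4.15% were lower with edgeR, 5.02% with the filter and between 2.24% and 5.46% with 1 library left out. Between 1.46% and 3.33% were higher with 1 library left out, and 6.68% with the replicate block. Among relatives, 3 were lower with the filter of 10 counts in 3 libraries and between 5 and 8 with 1 library left out. Within 100 kb, the replicate block gave 15 lower and 2 higher, against 13 and 0, and it moved the counts of relatives and of lower nearest neighbours by less than 1.5 times. The median CpG number was 8 with 1 gene per family and group and 7.5 for genes with at least 1 CPM in the lowest WT library. The cause of these shifts was not tested, apart from fewer genes tested under the filter. Depth limits the KO levels most in replicate 3, where 1 count is 0.0876 CPM.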

Other observations

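Of the 7 genes set aside by name, 5 are Y-linked. *Ddx3y*, an RNA helicase gene, had 73.2, 63.1 and 62.8 CPM in WT replicates 1 to 3 and 2.70, 2.08 and 1.49 CPM in KO, and *Eif2s3y*, a translation initiation factor gene, had 67.3, 63.9 and 58.7 CPM in WT and 7.98, 7.08 and 6.48 CPM in KO. The 3 genes that met the swapped rule include *Hist1h1t*, the testis linker histone, with 6.70, 7.64 and 4.26 CPM in WT and 43.9, 60.2 and 36.5 CPM in KO, and *Ccm2l*, with 0.147 ± 0.113 CPM in WT and 1.12 ± 0.174 CPM in KO (SD, n = 3 each).

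Per kb of exon, the near-silenced genes reached up to 8.93 CPM per kb (*1700013H16Rik*) in WT. At the median they stood at the 21.3 percentile of genes at the WT minimum, and 15 of 27 were below the 25th percentile.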
